A study of Mus musculus with 4 samples.

Results

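The genes described here encode core members of the RAS, RAF, MEK and ERK families in mouse melanoma cells. They are Nras and Hras (RAS), Braf and Araf (RAF), Map2k1 and Map2k2 (MEK), and Mapk3 (ERK). These 7 genes were found by their symbols among 24421 gene symbols in the count matrix, and all 7 were among the 9150 genes with enough counts to be tested. The set was chosen partly because Nras was higher in one group, so the differences of these 7 genes are given as descriptions with no p-value. The RAS-related genes Rras, Rras2 and Mras, which are not in the set, are given beside them with the test across all genes.

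The cells were B16F10, an established melanoma line from the C57BL/6 mouse strain, grown in DMEM with serum. They were mixed for 12 h with lentivirus carrying either a control vector (shControl) or a hairpin against Lmna (shLmna), the gene for lamin A and lamin C of the nuclear envelope. Both groups received puromycin at 2.5 µg/ml 36 h after infection and were then expanded. The controls thus share the lentiviral infection and the drug selection. RNA was measured by bulk MARS-seq, which counts molecules near the 3′ ends of transcripts, in 2 libraries per group. The labels call the control an shRNA, but the study's reagent list gives it as an empty pLKO.5-puro vector. Each group is a selected, expanded population with 1 construct, so loss of lamin A/C, other effects of this hairpin and, with an empty control vector, the expression of any hairpin cannot be told apart. Whether the 2 libraries within a group are from separate cultures is not given in the labels, so p-values measure only the spread between these libraries.

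RAS proteins are small GTPases on the inner face of the cell membrane that switch on when they bind GTP. Active RAS recruits the RAF kinases, RAF phosphorylates the MEK kinases, and MEK phosphorylates ERK, which acts on cytoplasmic and nuclear targets. In melanoma this cascade is often activated by mutation of BRAF or NRAS. RNA counts measure neither mutation nor phosphorylation, so the values below concern transcript levels alone.

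Nras and Hras, the RAS genes of the set, had the most unlike values of any paralogs in it, and the stretches up to their RefSeq start sites are shown for that reason. Nras lies at chr3:103058285-103067914 on the plus strand of GRCm38 and has 7 exons. Hras lies at chr7:141189105-141194005 on the minus strand. The stretches end just before the RefSeq start sites, with 98 bases for Nras and 250 bases for Hras, and the last base shown for Hras is the first base of the gene as GENCODE places it. Capitals mark the GC box GGGCGG, searched on both strands, with 2 overlapping matches in the Nras stretch (chr3:103058187-103058284) and 3 matches in the Hras stretch (chr7:141194005-141194254, minus strand).
Nras: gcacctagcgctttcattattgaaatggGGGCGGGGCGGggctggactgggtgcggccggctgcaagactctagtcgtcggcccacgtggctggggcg
Hras: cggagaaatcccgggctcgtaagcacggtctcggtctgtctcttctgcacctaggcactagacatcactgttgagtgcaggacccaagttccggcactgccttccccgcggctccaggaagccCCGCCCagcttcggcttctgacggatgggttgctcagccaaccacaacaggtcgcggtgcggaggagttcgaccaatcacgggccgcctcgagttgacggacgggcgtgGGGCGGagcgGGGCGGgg
The GC box occurred in 35.7% of 32851 RefSeq promoter windows of GRCm38.p6. The letters CCAAT, found in 37.4% of those windows, were present at Hras and not at Nras, and TATAAA, found in 13.6%, was in neither. The shares and the searches for CCAAT and TATAAA cover whole promoter windows, of which the Nras stretch shown is only a part. These matches describe letters only.

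Nras transcripts also carry a match to the seed of the let-7 miRNAs, which are known to repress RAS genes. The mature miRNA is shown with its seed (bases 2 to 8) in capitals, a seed that 11 mature mouse miRNAs share. Below it is the only match to that seed in the Nras 3′ UTR (at base 187 of 3727), also in capitals.
mmu-let-7a-5p: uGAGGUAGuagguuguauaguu
Nras site: cttcagaataaCTACCTCct
Braf had 1 match in its 3′ UTR of 7145 bases. The 3′ UTRs of Hras, Araf, Map2k1, Map2k2 and Mapk3, which are shorter (406 to 2096 bases), had 0. No miRNA was measured. Over the tested genes with a mapped 3′ UTR, 794 (8.94%) held a match, with a median log2 fold change of 0.05, beside -0.0045 for the 8087 without one. Genes with a match had longer 3′ UTRs, with a median of 2062 bases beside 857 for those without.

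The 4 libraries held between 2494880 and 3808843 counts. Lmna fell in shLmna cells, from 797 ± 111 CPM (counts scaled to a common library size) to 131 ± 0.095 (SD, n = 2 each), or by log2 -2.61 (SE 0.14, edgeR quasi-likelihood adjusted p = 7.9e-06). Replicates differed by more than counting noise, with a chi-square per degree of freedom of 6.96 in shControl and 3.91 in shLmna. Summed counts of 7 melanocyte lineage markers ran from 53489 to 90297 per library, so the libraries carry the RNA of pigment cells. The 5 leukocyte markers were at 0 in every library, and summed counts were at most 5 for endothelial, 1 for keratinocyte and 27 for fibroblast markers. In bulk RNA, a lower share of expressing cells and less RNA per cell cannot be told apart.

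Across all tested genes, edgeR's quasi-likelihood test with Benjamini-Hochberg adjustment called 5.48% higher and 9.74% lower in shLmna cells at an adjusted p under 0.05. With the study's further limits of an absolute log2 fold change over 1 and a mean normalised count over 5, 1.76% were called higher and 5.88% lower. Of the 7 genes, Nras alone passed as higher, under both rules, and Mapk3 alone as lower, under the first rule. Nothing is read from these counts, because the genes were chosen from the same contrast. Of all tested genes, 29.5% were higher and 30.6% lower in both shLmna libraries than in both shControl libraries. Within the set, Nras and Braf were higher and Hras, Araf and Mapk3 lower without overlap, while Map2k1 and Map2k2 overlapped.

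**Figure D1:**
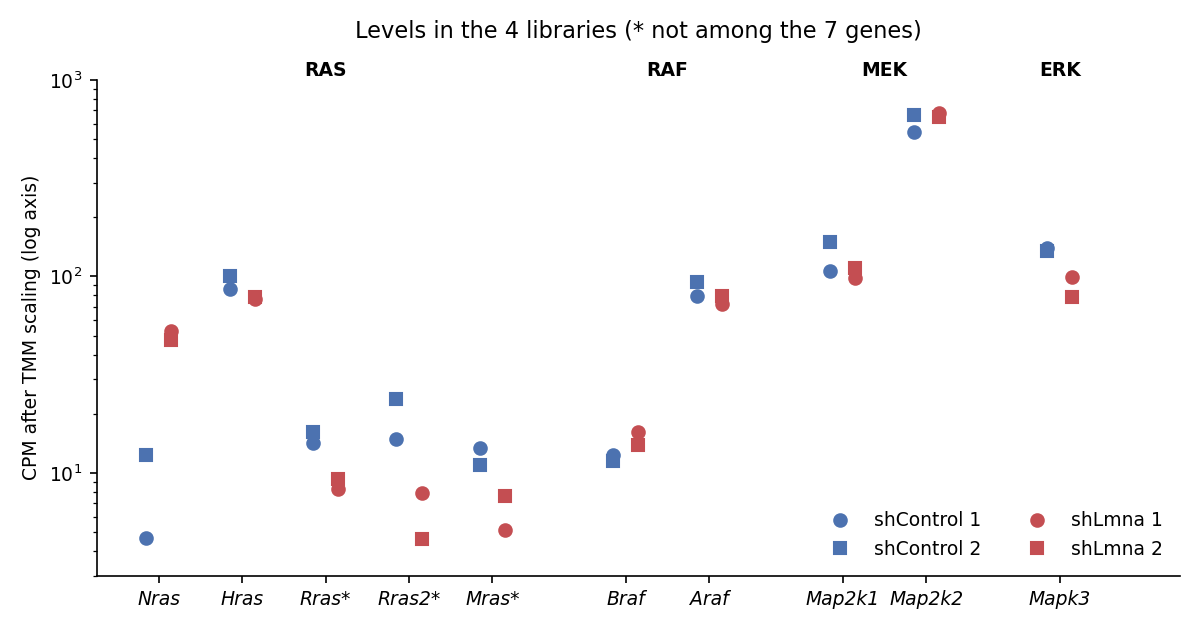
Level of each gene in each library, in CPM after TMM scaling on a log axis, with shControl in blue, shLmna in red, circles for replicate 1 and squares for replicate 2. The red Nras points lie far above the blue ones, whereas the points of Map2k1 and Map2k2 overlap, and an asterisk marks genes outside the set.

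Nras, the RAS gene most often mutated in melanoma, gave 15 counts in shControl 1, 46 in shControl 2, 134 in shLmna 1 and 175 in shLmna 2. Scaled for depth, these were 4.65, 12.3, 53.0 and 47.7 CPM. Both shLmna libraries stood above both controls, but the controls also differed from each other. The log2 fold change was 2.53 (SE 0.33), a 5.79-fold difference that ranked 19 from the top of the 9150 tested genes. It was 3.42 without shControl 2 and 2.03 without shControl 1. The 1000 bases counted at its 3′ end share no 31-base stretch with another gene's transcript, and no annotated gene overlaps them.

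Hras, a RAS gene with the same switch function, gave 278 and 376 counts in the control libraries and 194 and 287 in the shLmna libraries. After scaling these were 86.1, 100.7, 76.7 and 78.2 CPM in the same order. The levels in shLmna cells were slightly lower, with a log2 fold change of -0.27 (SE 0.14), opposite in sign to that of Nras. That value was -0.15 without shControl 2, so its size depends on 1 control library.

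The balance of the RAS counts follows from the same Nras and Hras counts and is given as a description only. Of the summed Nras and Hras counts, Nras took 5.12% in shControl 1 (exact 95% binomial interval 2.89 to 8.30) and 10.9% in shControl 2 (8.09 to 14.3). It took 40.9% in shLmna 1 (35.5 to 46.4) and 37.9% in shLmna 2 (33.4 to 42.5). The intervals cover counting error alone. Because the set was chosen partly on the rise of Nras, they are no test between the groups. For every 100 Hras counts there were 5.40 and 12.2 Nras counts in the controls and 69.1 and 61.0 in shLmna cells. The summed level of both genes was 102 ± 15.7 CPM in shControl and 128 ± 2.72 in shLmna cells (SD, n = 2 each). This 1.25-fold difference includes the rise of Nras, while Hras was slightly lower.

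**Figure D2:**
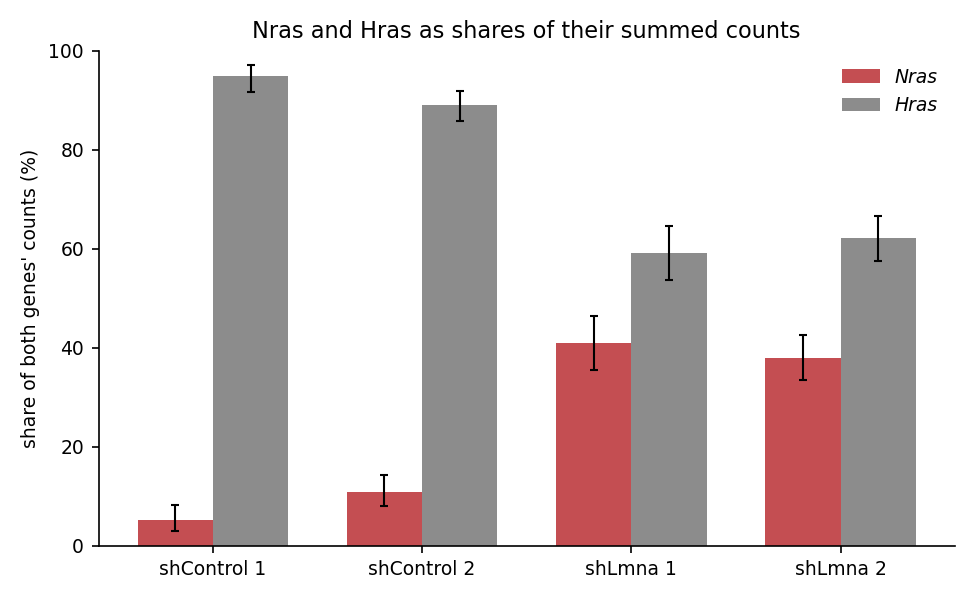
Nras and Hras as percentages of their summed counts in each library, with exact 95% binomial intervals that cover counting error alone. Nras makes up 5.12% and 10.9% of the counts in the control libraries and 40.9% and 37.9% in the shLmna libraries.

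Rras2, Rras and Mras had lower values in shLmna cells. Rras2, which encodes the RAS-like GTPase TC21, fell from 48 and 89 counts to 20 and 17, with an edgeR adjusted p of 0.011 at a log2 fold change of -1.67 (SE 0.35). That call was lost without shLmna 2 (adjusted p = 0.14) and with DESeq2 (adjusted p = 0.051), within a range of 3.3e-06 to 0.14 over its 13 alternatives. Rras, a regulator of integrin adhesion, had a log2 fold change of -0.78 and Mras, a partner of the phosphatase scaffold SHOC2, one of -0.89, and neither passed (edgeR adjusted p = 0.079 and 0.092).

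**Figure D3:**
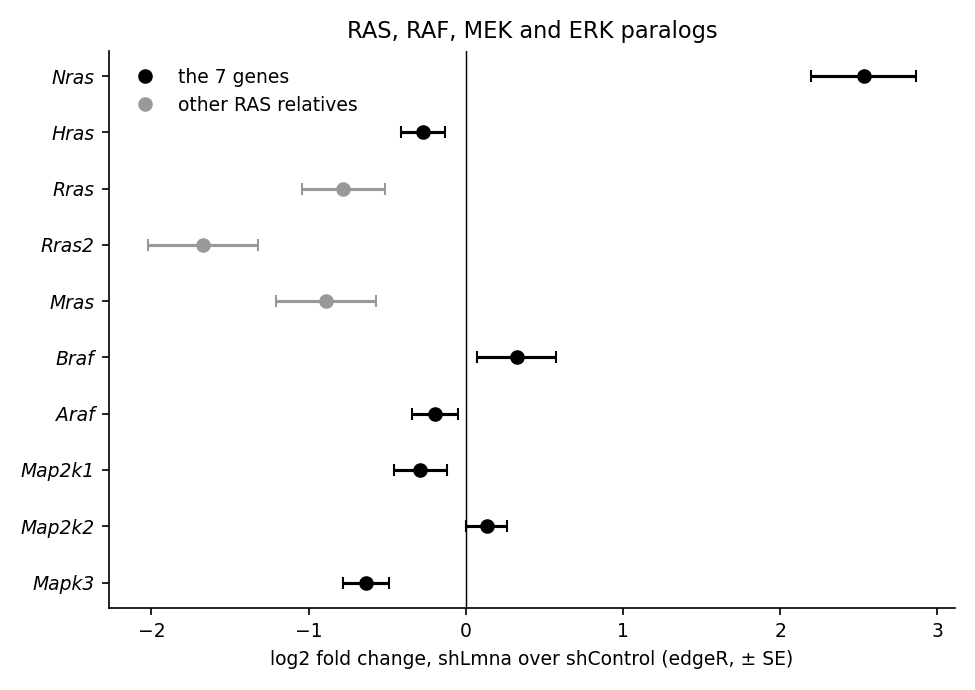
Log2 fold change of shLmna over shControl for the 7 genes and 3 RAS-related genes with the standard error from edgeR, in black for the 7 genes and in grey for Rras, Rras2 and Mras. Nras (2.53) stands at the right, Rras2 (-1.67) at the left, and the RAF and MEK genes lie close to 0.

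The RAF kinases showed small differences. Braf, the most active RAF kinase and a frequent melanoma oncogene, gave 40, 43, 41 and 51 counts in shControl 1, shControl 2, shLmna 1 and shLmna 2. These were 12.4, 11.5, 16.2 and 13.9 CPM, a log2 fold change of 0.33 with an SE of 0.25. The difference is little more than 1 SE, and Ndufb2, with 1541 to 2419 counts per library, overlaps the counted end of Braf on the other strand. Ndufb2 itself rose (log2 fold change 0.56, edgeR adjusted p = 0.011), and its part in the Braf counts was not tested.

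Araf, a RAF kinase of lower activity encoded on chromosome X, gave 79.9 and 94.0 CPM in the controls and 72.4 and 79.3 in shLmna cells. The groups came within 1 CPM of each other, and the log2 fold change of -0.20 (SE 0.14) was -0.07 without shControl 2. Syn1, which overlaps its counted end on the other strand, had 0 counts in every library.

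Braf stood at 15.5 and 12.3 counts per 100 Araf counts in the controls and at 22.4 and 17.5 in shLmna cells. Araf gave more counts than Braf in all 4 libraries.

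Taken singly, neither MEK gene separated the groups by its level. Map2k1, which encodes MEK1, gave 344, 556, 248 and 407 counts, or 106.6, 148.9, 98.1 and 110.9 CPM, in shControl 1, shControl 2, shLmna 1 and shLmna 2. The shLmna 2 value lies between the controls, and the log2 fold change was -0.29 (SE 0.17), or -0.03 without shControl 2. Map2k2, which encodes MEK2 and gave the most counts of the 7 genes, had 1761, 2482, 1713 and 2386 counts, or 545.5, 664.5, 677.5 and 650.1 CPM. Its log2 fold change was 0.13 (SE 0.13) and came to 0.00080 without shControl 1. For every 100 Map2k2 counts, 19.5 and 22.4 Map2k1 counts were found in the controls and 14.5 and 17.1 in shLmna cells, without overlap. The summed MEK level was 733 ± 114 CPM in shControl and 768 ± 10.3 in shLmna cells.

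Mapk3, which encodes the kinase ERK1 at the end of the cascade, was lower in shLmna cells. It gave 453 and 503 counts in the controls and 252 and 288 in shLmna cells. At 140.3 and 134.7 CPM against 99.7 and 78.5 CPM, the shLmna libraries lay below both controls, with a log2 fold change of -0.63 (SE 0.15), a 1.55-fold difference. Leaving out any 1 library gave values from -0.80 to -0.45. Of the 31-base stretches of its counted end, 1.44% occur in other genes.

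Over the 7 genes the median log2 fold change was -0.20, beside -0.0011 over all tested genes. Nras lies far outside the range of the other 6, which ran from -0.63 to 0.33. Counts between genes are set side by side per library only, since 3′ counting gives no value for an end outside the counted stretch.

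Ampd1, a muscle AMP deaminase gene near Nras on the chromosome, had at most 3 counts in any library and was not tested.

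Transcripts with low GC content at the counted end varied most between the groups, and Nras and Braf are among them. The counted end of Nras has 39.1% GC, that of Braf 38.8% and that of Map2k1 42.0%, whereas Hras has 52.6%, Araf 53.8%, Map2k2 56.7% and Mapk3 55.7%. Among 1778 tested genes at 40% GC or less, 8.89% passed as higher and 24.9% as lower, beside 3.25% and 6.89% of 3412 genes over 50% GC. The low-GC genes took 7.37% and 8.16% of the counts in the controls and 6.58% and 6.91% in shLmna cells. After correction for GC content the log2 fold change was 2.48 for Nras, and -1.65 for Rras2, whose counted end has 37.2% GC. What part base composition has in these values was not tested further.

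**Figure D4:**
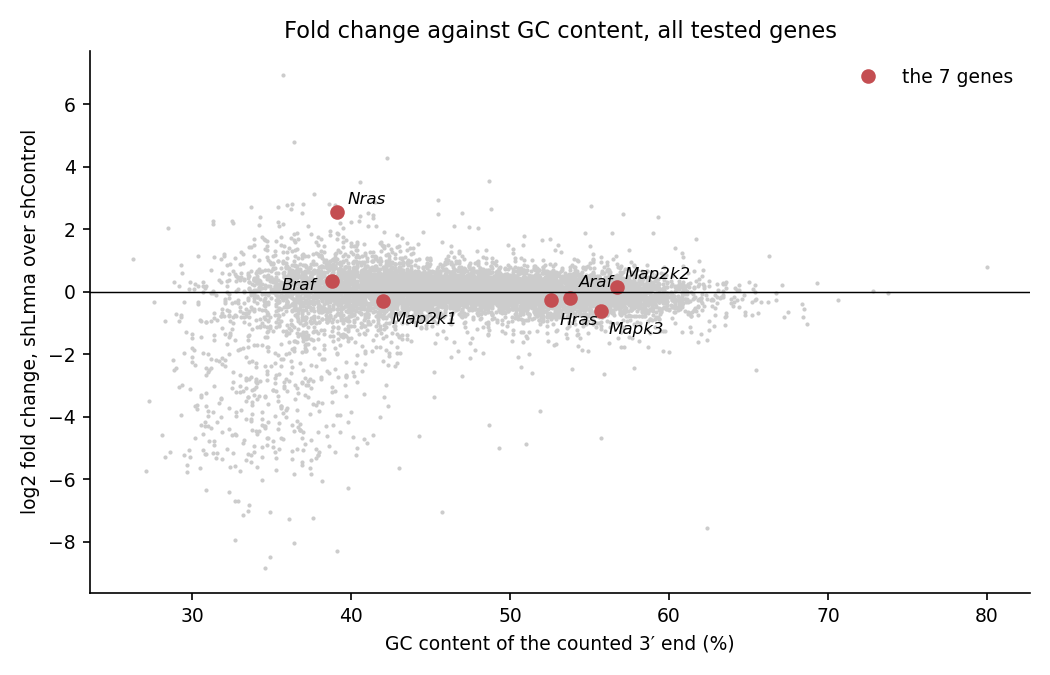
Log2 fold change of shLmna over shControl against the GC percentage of the counted 3′ end, with every tested gene as a grey dot and the 7 genes in red. Nras lies high at low GC content, where the grey dots also spread most, mainly downwards.

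The tested genes whose pattern was most like that of Nras were taken by Euclidean distance over the 4 libraries in centred log2 CPM. They were Bnip3l, a mitophagy receptor (distance 0.376), Slc7a11, the cystine transporter (0.407), Atp2c1, a Golgi calcium pump (0.451), Phtf2 (0.472) and Ptp4a1, a phosphatase (0.474). Bnip3l stood at 2.17 and 5.62 CPM in the controls and 24.1 and 30.2 in shLmna cells. Slc7a11 and Atp2c1 had 0 counts in shControl 1. All 5 were lower in shControl 1 than in shControl 2, as Nras was, which the choice by distance over these libraries favours. Their counted ends had 35.4% to 39.0% GC. Of the 9099 tested genes with a GC value, 1778 had 40% GC or less, as had 158 of the 498 called higher.

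Genes that act around the cascade were read from 9 lists of 111 genes in all, of which 81 were tested, 4 rose and 7 fell. Their median log2 fold change was -0.033, beside -0.0011 for all tested genes. Thus 4.94% rose and 8.64% fell, beside 5.48% and 9.74% of all tested genes. The latter shares are also the background for each list below, and no list was tested as a set.

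Among 16 RAS activators and adaptors, 9 were tested and 1 rose. Rasgrp3, an exchange factor that loads RAS with GTP, went from 34 and 55 counts to 63 and 117 (log2 fold change 1.17, SE 0.26, edgeR adjusted p = 0.014). The call was lost without shLmna 2 (adjusted p = 0.13) and with DESeq2 (0.071), over a range of 0.00012 to 0.13. Grb2, the adaptor that brings SOS to receptors, had a log2 fold change of -0.30 (adjusted p = 0.18), and Sos1 had at most 9 counts and was not tested.

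Of 13 RAS inactivators, 8 were tested and 0 passed in edgeR, also at an unadjusted p under 0.05, or with DESeq2 or limma. Nf1, the GTPase activator neurofibromin, had 11, 16, 13 and 20 counts in shControl 1, shControl 2, shLmna 1 and shLmna 2. Rasa1 had 25 counts in shControl 2 and at most 1 in each other library, and Rasa2 had 24 there and 3 to 4 elsewhere, and these GTPase activators fell under the count filter.

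Of 13 genes of RAS lipid processing and transport, 13 were tested, 0 rose and 4 fell (30.8%, beside 9.74% of all tested genes). Abhd17a, Abhd17b and Abhd17c encode the enzymes that remove palmitate from NRAS. Abhd17b fell from 52 and 88 counts to 2 and 4 (log2 fold change -4.31, SE 0.43, edgeR adjusted p = 0.00015), and Abhd17c from 185 and 230 to 45 and 80 (log2 fold change -1.57, SE 0.19, adjusted p = 0.00047). Both passed in all 13 alternatives, with adjusted p at most 0.0064 and 0.009. The counted end of Abhd17b has 30.8% GC, and after correction for GC content its log2 fold change was -3.25, beside -1.63 for Abhd17c (38.9% GC). Abhd17a went from 737 and 941 counts to 465 and 587 (log2 fold change -0.49, adjusted p = 0.032), a call lost in 4 alternatives with adjusted p up to 0.26. Pde6d, a carrier of farnesylated RAS, went from 349 and 508 counts to 195 and 279 (log2 fold change -0.68, adjusted p = 0.014), a call lost without either shLmna library (adjusted p = 0.10 and 0.14). The farnesyltransferase genes Fnta and Fntb had log2 fold changes of -0.07 and -0.09 and did not pass (adjusted p = 0.77 and 0.70). Lypla1, another depalmitoylating enzyme, had 149 and 175 counts in the controls, 25 in shLmna 1 and 168 in shLmna 2.

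Of 10 RAF regulators and scaffolds, 6 were tested and 1 fell. Lamtor2, part of the endosomal complex that holds MEK1, fell (log2 fold change -0.46, edgeR adjusted p = 0.034), a call lost in 4 alternatives with adjusted p up to 0.24, while its partner Lamtor3 had 0.46 (adjusted p = 0.10). Ppp1cb, a phosphatase subunit that activates RAF, had 75 counts in shControl 2 and 4 to 7 in the others.

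Downstream of ERK, 7 of 8 phosphatase and Sprouty genes were tested and 0 passed in edgeR, also at an unadjusted p under 0.05, or with DESeq2 or limma. Dusp6, the phosphatase specific to ERK, had 77, 86, 27 and 90 counts in shControl 1, shControl 2, shLmna 1 and shLmna 2. Of 15 transcripts known to be induced by ERK signalling, 11 were tested, 2 rose and 0 fell. Etv5, an ETS transcription factor, went from 9 and 4 counts to 22 and 29 (log2 fold change 2.11, SE 0.48, edgeR adjusted p = 0.016). Ccnd1, which encodes cyclin D1, went from 779 and 846 to 873 and 1126 (log2 fold change 0.48, SE 0.13, adjusted p = 0.030). Each call was lost in several alternatives, 4 for Etv5 and 3 for Ccnd1, with adjusted p up to 0.15 and 0.22. The median of the list was 0.03, and Etv4, Phlda1, Ier3 and Myc did not pass, at 1.21, -0.38, -0.06 and 0.03. Epha2, with 9 and 11 counts in the controls and 2 and 2 in shLmna cells, was not tested. Neither was Fosl1, with 5 and 8 against 0 and 1.

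Of 10 ERK substrates, 6 were tested and 1 rose. Elk3, an ETS factor, had 25 and 44 counts in the controls and 49 and 77 in shLmna cells (log2 fold change 1.04, edgeR adjusted p = 0.030), a call lost in 4 alternatives with adjusted p up to 0.23.

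Among 16 MEK and MAPK genes of other cascades, 13 were tested, 0 rose and 2 fell. Mapk6, which encodes the atypical kinase ERK3, fell from 112 and 151 counts to 17 and 13 (log2 fold change -2.92, SE 0.30, edgeR adjusted p = 0.00021), with adjusted p at most 0.0067 over 13 alternatives. Mapk7, which encodes ERK5, also fell (log2 fold change -0.65, adjusted p = 0.031), a call lost in 5 alternatives with adjusted p up to 0.21. The counted end of Mapk6 has 36.9% GC, and after correction for GC content its log2 fold change was -2.88. Mapk14, the main p38 kinase gene, did not pass, at 0.10. Of 14 genes for RAS effectors outside the RAF cascade, 12 were tested and 0 passed in edgeR, with 2 at an unadjusted p under 0.05, 0 passing with DESeq2 and 2 with limma on the batch-corrected values. Pik3ca, a catalytic subunit of PI3 kinase, had at most 1 count in any library.

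**Figure D5:**
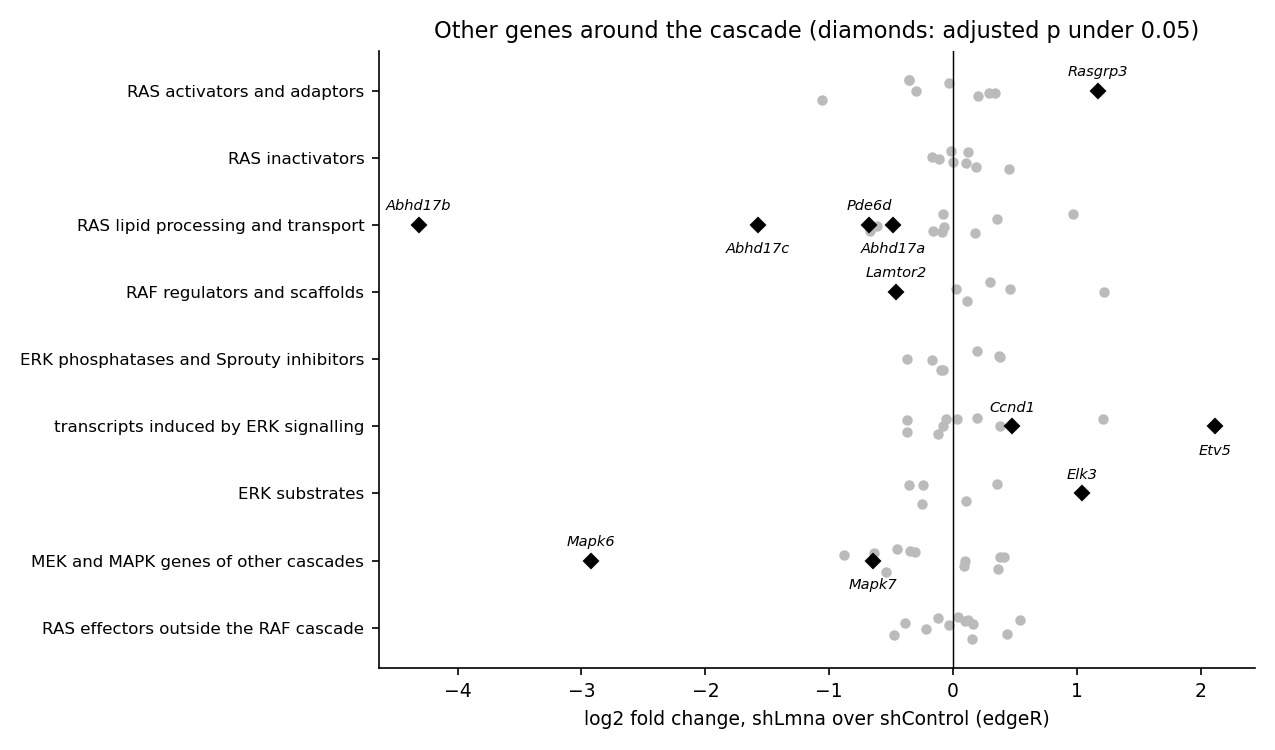
Log2 fold change of shLmna over shControl for each tested gene of the 9 lists, with black diamonds and names for genes at an edgeR adjusted p under 0.05 and grey points for the others (vertical scatter within a list only separates points). Abhd17b (-4.31) and Mapk6 (-2.92) lie farthest left, Etv5 (2.11) farthest right.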

How the data were processed

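MARS-seq libraries of B16F10 cells, 2 per group, were analysed from the deposited tables. As the study's methods describe, the authors trimmed reads with Cutadapt, aligned them to mm10 with STAR 2.4.2a and used HTSeq to count unique molecules over the last 1000 bases of RefSeq genes and 100 bases beyond. Raw counts per gene were deposited and used for all results. The authors also deposited a normalised signal (counts divided by a size factor) and log2 values after ComBat batch correction, with batches not named in the sources used here. From the signal, 100% of values came out as whole counts (within 0.1), and edgeR on these called 1436 genes. They are not the same counts as the raw matrix, whose totals were 1.08 to 1.09 times as high, with 0 genes lower in it. Columns with the authors' own fold changes and p-values were not used.

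Counts were tested with edgeR 4.0.16 (quasi-likelihood, TMM scaling, filterByExpr, group as the only term), with Benjamini-Hochberg adjustment over 9150 genes. CPM are TMM-scaled, and log2 CPM used a prior count of 2. Alternatives were RLE, upper-quartile and total scaling, no filter, DESeq2 1.42.0, limma 3.58.1 on the batch-corrected values, recovered counts, a replicate block, GC correction (loess, span 0.5, 9099 genes) and leaving out each library. Scripts were tested on simulated data. Binomial intervals are exact at 95% and cover counting error only, and with 2 libraries against 2 an exact permutation test cannot go below p = 0.333, so none was used. Gene positions and counted ends came from GENCODE on GRCm38, promoter windows and miRNAs from RefSeq. Strand use in counting is not given in the sources used here, so overlapping genes on the other strand may add counts.

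The members and lists were chosen with earlier results of these data known. Named were the 7 genes, Rras, Rras2 and Mras, Lmna, Ampd1, the listed genes with an adjusted p under 0.05, and the 5 genes closest to Nras. Ndufb2 and Syn1 were named for their overlap. Other genes of the lists, which did not pass, were chosen as examples after their values were seen. Results for some further genes are not reported here.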

Additional observations from a re-analysis of the deposited data

How the results depend on the processing

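In every alternative Nras and Braf stayed higher and Hras, Araf, Map2k1 and Mapk3 lower in shLmna cells, and Map2k2 stayed above 0. Leaving out 1 library in turn gave log2 fold changes of 2.03 to 3.42 for Nras, -0.37 to -0.15 for Hras, 0.22 to 0.45 for Braf, -0.30 to -0.07 for Araf, -0.50 to -0.026 for Map2k1, 0.00080 to 0.28 for Map2k2 and -0.80 to -0.45 for Mapk3. On the batch-corrected log2 values, whose differences are smaller for the genes of the set, they were 0.65 for Nras, -0.11 for Hras, 0.073 for Braf and -0.29 for Mapk3. The Nras share of the summed Nras and Hras counts averaged 39.4% in shLmna cells. Lmna stayed between -2.75 and -1.54.

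Over all genes, 501 were called higher and 891 lower. These counts became 218 and 589 with DESeq2 and 1793 and 1988 with limma on the batch-corrected values, and 89 to 775 and 414 to 1329 with a library left out. Fewest were called without shLmna 1 (119 and 436) or shLmna 2 (89 and 414), most without shControl 1 (775 and 1329). By the 3 limits, 161 higher and 538 lower became 66 higher with DESeq2, 2 and 27 with limma, and 60 to 232 and 387 to 743 with a library left out. The 4 higher and 7 lower pathway genes became 9 and 13 without the count filter, 1 higher with DESeq2, 13 and 17 with limma, and 0 to 5 and 3 to 18 with a library left out. Higher calls numbered 1 without shLmna 1 and 0 without shLmna 2, where edgeR's unadjusted p was under 0.05 for 11 pathway genes that were higher. The lower calls numbered 18 without shControl 1, 4 without shControl 2, 3 without shLmna 1 and 4 without shLmna 2. The cause was not tested.

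Libraries with the same replicate number did not deviate together (r = 0.013 across genes). With 2 libraries per group, this cannot show whether the numbers mark a shared culture or preparation. With the replicate number as a block, 852 genes were called higher and 1220 lower, 8 pathway genes higher and 11 lower, and Nras was at 2.57.

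Low counts limit Nras in the controls, where 15 and 46 counts set the size of its fold change, and 30 pathway genes had too few counts to test.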
